A study of Bos taurus with 6 samples.

Results

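KPNA7, the zona pellucida genes ZP2, ZP3 and ZP4, and the meiosis gene SYCP3 were read in day-7 bovine blastocysts. The genes were chosen by symbol: every probe set to which the platform annotation gives 1 of these 5 symbols was taken, which gave 6 probe sets of the 24016 tested, for 5 of the 9155 genes with a symbol. KPNA7, ZP2, ZP3 and ZP4 had 1 probe set each and SYCP3 had 2. The superovulated group comprised 3 arrays of blastocysts that stayed until day 7 in Simmental heifers that had been synchronized, superovulated and inseminated. The synchronized group comprised 3 arrays of blastocysts from donors treated the same way, recovered on day 2 at the 2-cell stage and placed by endoscope in recipients that were synchronized but not superovulated. All embryos therefore came from superovulated, inseminated donors, and the groups differed both in the tract in which the embryo grew and in the flushing and transfer that only the synchronized embryos underwent. The labels state neither how many blastocysts an array holds nor whether replicate arrays came from separate collections. The p-values given here therefore cover array-to-array spread only, part or all of which may be technical.

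These genes are known from the egg. Whether their signal in blastocysts was left by the egg or made by the embryo was not tested. KPNA7 is an importin alpha, an adaptor that binds nuclear localization signals and carries proteins through the nuclear pore together with importin beta, and in cattle its transcript was described in oocytes and early embryos. ZP2, ZP3 and ZP4 are the glycoproteins of the bovine zona pellucida, the coat that the growing oocyte lays down and that surrounds the embryo until hatching. SYCP3 is a protein of the lateral element of the synaptonemal complex, which holds homologous chromosomes during meiotic prophase. Maternal transcripts of this kind are cleared from the embryo as its own genome is activated.

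The arrays read a log2 signal per probe set, made by the authors with GCRMA, a method that subtracts a background estimated from probe sequence. A signal of log2 4 is used here as the line above which a probe set is called bright, and 1406 probe sets had a mean above it over the 6 arrays. Array medians lay between 2.75 and 2.8. Single arrays had 1457 to 1894 probe sets over that line in the superovulated group and 973 to 1850 in the synchronized group, with the most on superovulated array 3 and synchronized array 2. The 18 hybridization controls, spiked in before hybridization, averaged 12.65 to 12.69 on the superovulated arrays and 12.91 to 13.54 on the synchronized arrays. The groups thus did not overlap in these controls, and the part of this technical difference in the group comparisons was not tested. Of 14 measured blastocyst markers 5 exceeded log2 4 on at least 1 array, and 2 of the 14 passed the group test, both higher in the superovulated group. Over all probe sets tested 0.716% passed, 0.695% of them all being higher in that group. KRT18, a keratin of the trophectoderm, read 7.96, 8.11 and 7.74 on the superovulated arrays, against 3.55, 3.68 and 4.90 on the synchronized arrays (limma adjusted p = 0.0410). DAB2, an endocytic adaptor of extraembryonic epithelia, was higher by 2.21 on 1 of its 2 probe sets (limma adjusted p = 0.0387), and EZR and GATA6 differed by 2.18 and 2.12 without passing. The remaining marker above log2 4, ATP1B1, read 3.93, 3.91 and 5.40 on the superovulated arrays, against 3.83, 5.60 and 4.78 on the synchronized arrays. Its difference of -0.32 did not pass, and over the 6 arrays it correlated with KPNA7 at Pearson's r = 0.89. The pluripotency gene SOX2 and the keratin gene KRT8 stayed flat at background, so their probe sets cannot show whether these genes were expressed. The pluripotency gene POU5F1 stayed below log2 4 on every array. It read 3.54, 3.43 and 3.24 on the superovulated arrays, against 2.65, 2.73 and 2.40 on the synchronized arrays (limma adjusted p = 0.0886). The label of blastocyst thus rests here on few markers with a clear signal, and on fewer in the synchronized group.

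KPNA7 was above log2 4 on every array and varied more within a group than between the groups. Its signal was 5.94, 5.98 and 7.78 on superovulated arrays 1 to 3, against 4.04, 9.02 and 6.11 on synchronized arrays 1 to 3. The superovulated values lay inside the range of the synchronized ones, so the groups overlapped fully. In descending order the arrays ran synchronized 2, superovulated 3, synchronized 3, superovulated 2, superovulated 1 and synchronized 1, and the middle of that order, at 6.11, 5.98 and 5.94, was not separated by more than the spread between superovulated arrays 1 to 3. Between the 2 extreme synchronized arrays the signal differed by 4.98 log2 units, which is 31.6-fold on a linear scale. Superovulated array 3 stood 1.82 log2 units, or 3.53-fold, above the mean of the other two arrays of its group. The SD was 1.05 in the superovulated and 2.50 in the synchronized group (n = 3 each). Of the 1406 bright probe sets, 29 had a larger SD within groups than the 1.92 of KPNA7 pooled over both.

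ZP2 and ZP4 were near background on most arrays and stood clear of it on the same pair of arrays on which KPNA7 was highest. ZP2, a zona protein to which sperm bind in mouse and human, read 3.31, 3.44 and 4.83 on superovulated arrays 1 to 3, against 2.78, 6.14 and 3.94 on synchronized arrays 1 to 3. It exceeded log2 4 on 2 arrays, superovulated 3 and synchronized 2, and its 6 arrays stood in the same order as for KPNA7. ZP4, a zona glycoprotein present in cattle, pig and human but without a functional gene in mouse, read 2.68, 2.67 and 4.15 on the superovulated arrays, against 2.71, 5.35 and 2.76 on the synchronized arrays. Its other 4 arrays lay between 2.67 and 2.76, so ZP4 was at background everywhere except on superovulated array 3 and synchronized array 2. Within the synchronized group, array 2 exceeded array 1 by 3.36 log2 units (10.3-fold) for ZP2 and by 2.64 (6.23-fold) for ZP4. Superovulated array 3 exceeded the mean of superovulated arrays 1 and 2 by 1.46 log2 units (2.74-fold) for ZP2 and by 1.48 (2.78-fold) for ZP4. GCRMA compresses signals near background, so these folds are uncertain in size.

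ZP3, the zona protein that forms filaments with the others, gave no usable signal. It read 2.51, 2.5 and 2.49 on superovulated arrays 1 to 3, against 2.52, 2.54 and 2.51 on synchronized arrays 1 to 3. The 6 values spanned 0.05 log2 units at background. Whether ZP3 transcripts followed ZP2 and ZP4 cannot be read from this probe set.

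SYCP3 was weak. The second of its probe sets read 3.18, 3.26 and 3.73 on the superovulated arrays, against 3.27, 4.76 and 3.58 on the synchronized arrays. Only synchronized array 2 exceeded log2 4, with superovulated array 3 next, so the top of the order was that of KPNA7 and the zona genes. The first probe set read 2.60, 2.65 and 2.63 on the superovulated arrays, against 2.67, 3.1 and 2.87 on the synchronized arrays. Here the groups did not overlap, which was so for 1 of the 6 probe sets and for 13.3% of all probe sets tested, but the values stayed near background and superovulated array 3 did not stand out. Both SYCP3 probe sets and that of KPNA7 were annotated through expressed sequence tags, whereas those of the zona genes were annotated through RefSeq mRNAs.

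**Figure D1:**
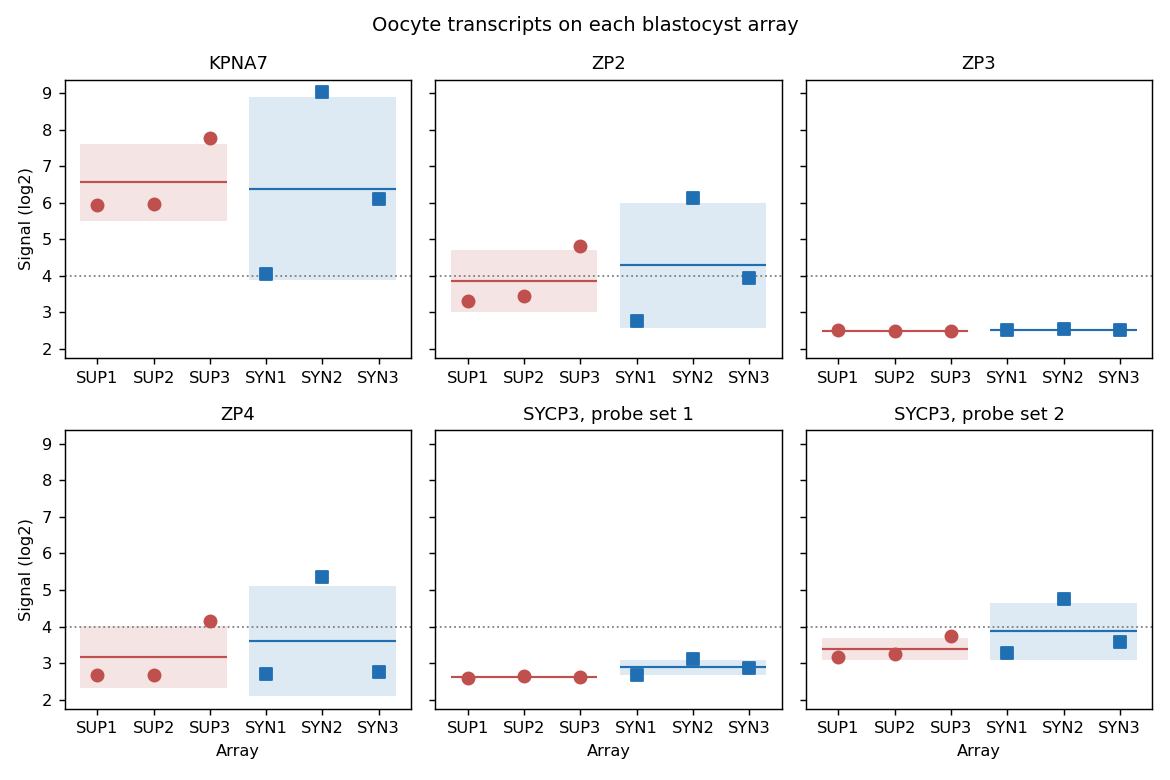
Log2 signal of the 6 probe sets (vertical axes, log2 units) on each array (horizontal axes; SUP is superovulated, circles, and SYN synchronized, squares), with lines at the group means, bands of 1 SD (n = 3) and a dotted line at log2 4. KPNA7 runs from 4.04 on SYN1 to 9.02 on SYN2, ZP2 and ZP4 exceed log2 4 on SUP3 and SYN2, and ZP3 stays between 2.49 and 2.54.

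Across the arrays the probe sets with signal stood in a like order at the top. The 4 that exceeded log2 4 on at least 1 array, those of KPNA7, ZP2, ZP4 and the second of SYCP3, were all highest on synchronized array 2 and second on superovulated array 3. ZP2 and ZP4 exceeded log2 4 on this pair of arrays only, and the second SYCP3 probe set on synchronized array 2 only. Their shared top was therefore partly set by the filter, which was not so for KPNA7, above log2 4 on every array. ZP3 and the first SYCP3 probe set lay at background, so their order of arrays carries no information. Among all probe sets tested, 12.8% were highest on synchronized array 2, and among the bright ones 27.2% were. Synchronized array 2 and superovulated array 3 were the highest pair, in either order, for 6.96% of all probe sets tested. For the bright ones this share was 28.6%, and for the widely varying probe sets compared with KPNA7 below it was 40.9%. The pair alone was thus common among probe sets with signal. The arrays also differed in how many probe sets were above log2 4: superovulated array 3 had 1894 and synchronized array 2 had 1850, the highest counts, and synchronized array 1, the lowest for KPNA7 and ZP2, had 973. The part of this difference between arrays in the common pattern was not tested.

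As a description over the 6 arrays, which share an amplification and array protocol, KPNA7 correlated with ZP2 at Pearson's r = 0.96 (Spearman's rho = 1). Without synchronized arrays 1 and 2, the arrays farthest from the KPNA7 median, r was 0.95, and without superovulated array 3 and synchronized array 2, left out after the data were seen, it was 0.86. Taken as deviations from each group's mean, KPNA7 and ZP2 gave r = 0.995. KPNA7 correlated with ZP4 at r = 0.89 (rho = 0.77) and with the second SYCP3 probe set at r = 0.85 (rho = 0.83). Without superovulated array 3 and synchronized array 2 these became -0.01 and 0.27, and ZP4 had no signal on the arrays that remained, so both relations rest on that pair of arrays. These values come from 15 pairs of probe sets and carry no test.

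**Figure D2:**
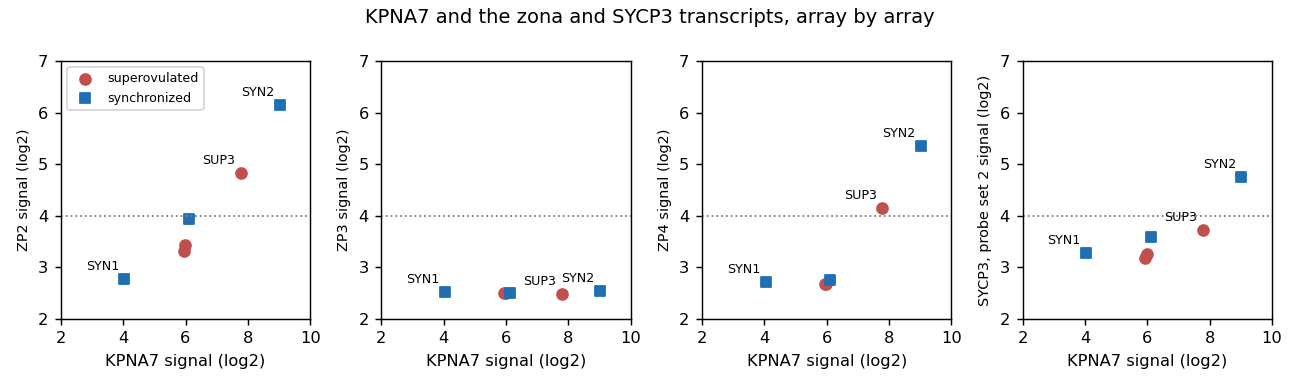
Log2 signal of ZP2, ZP3, ZP4 and the second SYCP3 probe set (vertical axes) against that of KPNA7 (horizontal axes) on the 6 arrays, with circles for superovulated and squares for synchronized arrays and a dotted line at log2 4. SYN2 is at the upper right in the ZP2, ZP4 and SYCP3 panels with SUP3 next to it, and the ZP3 points lie on a flat line.

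The question behind the group comparison was whether development in a superovulated tract alters the embryo's transcripts, and for these genes no difference was resolved. In limma over all 24016 probe sets, 0 of the 6 passed an adjusted p of 0.05 and 0 had an unadjusted p below 0.05, against 0.716% (0.695% higher and 0.0208% lower) and 6.65% of all probe sets tested. KPNA7 averaged 6.57 ± 1.05 in the superovulated group and 6.39 ± 2.50 in the synchronized group (SD, n = 3 each). The difference, superovulated minus synchronized, was 0.18 log2 units with a 95% interval of -3.45 to 3.80 (limma adjusted p = 0.938). These data thus allow KPNA7 to be anything from 10.9-fold lower to 13.9-fold higher in superovulated heifers. The range over the arrays was 28.2 times the difference.

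The zona genes and SYCP3 had differences below 0, none of which passed. ZP2 averaged 3.86 ± 0.84 in the superovulated and 4.29 ± 1.71 in the synchronized group, a difference of -0.43 (interval -2.97 to 2.12, limma adjusted p = 0.809). ZP4 averaged 3.17 ± 0.85 in the superovulated and 3.61 ± 1.51 in the synchronized group, a difference of -0.44 (interval -2.76 to 1.88, limma adjusted p = 0.779). The ZP3 difference was -0.02, between values at background. For SYCP3 the second probe set differed by -0.48 (interval -1.60 to 0.64) and the first by -0.25 (interval -0.55 to 0.04), both at limma adjusted p = 0.636. The median difference of the 6 probe sets was -0.34, beside -0.02 over all probe sets tested. All 6 intervals held 0.

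Which array was left out set the direction for KPNA7, ZP2 and ZP4. Without synchronized array 2 the differences were 1.49 for KPNA7, 0.50 for ZP2 and 0.43 for ZP4. Without synchronized array 1 they were -0.998, -1.18 and -0.89, and without superovulated array 3 they were -0.43, -0.91 and -0.93. With superovulated array 3 and synchronized array 2 both left out, KPNA7 differed by 0.88, ZP2 by 0.02 and ZP4 by -0.06. None of these passed. In RNA from whole embryos, fewer cells that hold a transcript and less of it in each cell cannot be told apart.

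**Figure D3:**
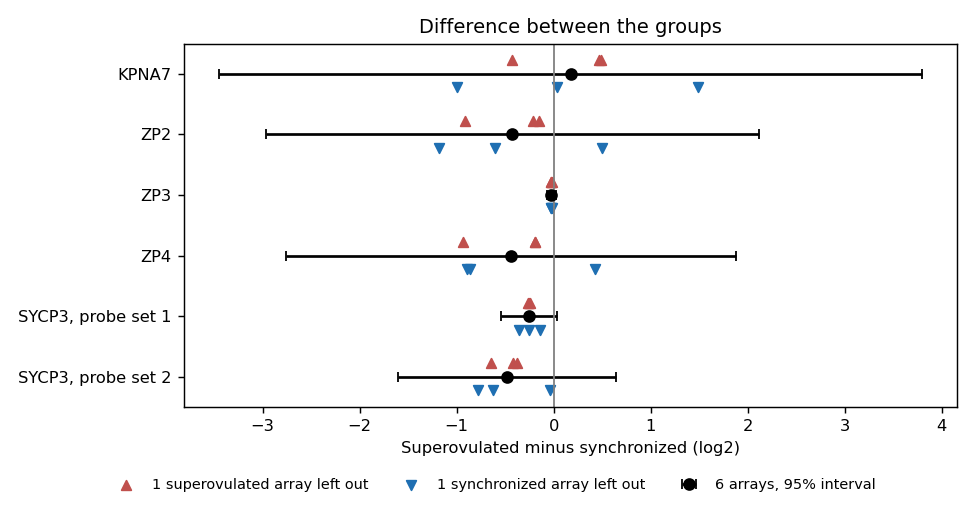
Superovulated minus synchronized difference (horizontal axis, log2 units) of each probe set, with dots and bars for the value over 6 arrays and its 95% interval, and triangles for the values with 1 array of either group left out. Every bar crosses 0, and the triangles of KPNA7 run from -0.998 to 1.49.

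The spread between arrays remained under other scalings. The range of KPNA7 over the 6 arrays was 4.98 log2 units as deposited, 3.85 after a second quantile normalization and 3.89 after each array was centred on its bright probe sets, a comparison of ranges added after the data were seen. For ZP2 these ranges were 3.36, 3.003 and 2.83, and for ZP4 2.68, 2.27 and 2.81. KPNA7, ZP2, ZP4 and the second SYCP3 probe set were highest on synchronized array 2 under each of these scalings. Superovulated array 3 stayed second under each of them for KPNA7 only. With arrays centred on bright probe sets, superovulated array 3 fell just below synchronized array 3 for ZP2 (-0.933 against -0.912). For ZP4 it fell just below synchronized array 1 (-1.613 against -1.609). For the second SYCP3 probe set it read -2.03, below synchronized arrays 1 and 3 at -1.05 and -1.27. After the second quantile normalization that probe set read 3.59 there, below synchronized array 3 at 3.64. ZP3 and the first SYCP3 probe set, at background, turned to synchronized array 1 with arrays centred on bright probe sets.

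Many other transcripts shared the array pattern of KPNA7, and those most like it included genes that most cell types use, such as RBBP7 and TARDBP. Likeness was measured by Pearson's r over the 6 arrays against 398 probe sets with 1 symbol, a highest array above log2 6 and a range of at least 2 log2 units. The 12 genes with the highest r were MAFG, FBXO9, SQSTM1, RBBP7, PCBP1, TARDBP, BCNT2, LOC513055, CETN3, PAIP1, PSMG1 and CDV3, with r between 0.988 and 0.999. Chosen for their likeness, all 12 were highest on synchronized array 2 and second on superovulated array 3. RBBP7, a histone-binding protein of chromatin complexes, read 7.18, 7.27 and 8.69 on the superovulated arrays, against 5.15, 10.12 and 7.47 on the synchronized arrays. MAFG, a small Maf transcription factor, read 6.01, 5.96 and 7.35 on the superovulated arrays, against 4.41, 8.36 and 6.19 on the synchronized arrays. SQSTM1, the autophagy receptor p62, read 4.45, 4.45 and 6.10 on the superovulated arrays, against 3.04, 6.91 and 4.81 on the synchronized arrays.

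Other genes among the 12 have varied roles. PCBP1 and TARDBP encode RNA-binding proteins, PAIP1 a partner of the poly(A)-binding protein, FBXO9 a substrate receptor of a ubiquitin ligase, PSMG1 a chaperone of proteasome assembly and CETN3 a centrin of the centrosome. A second FBXO9 probe set gave r = 0.94, while further probe sets of SQSTM1, TARDBP, BCNT2 and CETN3 stayed below log2 4 with r below 0, and a dim second probe set of CDV3 gave r = 0.86. Of the 398 probe sets 51 had r above 0.95 and 81 above 0.9, and the median r was 0.60. The array order of KPNA7 was found exactly in 60 bright probe sets (4.27%, KPNA7 and ZP2 included) and in 96 of all tested (0.400%). The 12 genes most like ZP2 by the same measure shared 0 genes with the 12 most like KPNA7, although all 12 were likewise highest on synchronized array 2 and second on superovulated array 3.

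The genes least like KPNA7 had r between -0.33 and -0.30. They were FUT1, a fucosyltransferase, DYNC1LI1, a dynein light intermediate chain, AASDHPPT, a phosphopantetheinyl transferase, LGALS3, which encodes galectin-3, and NHLRC2. LGALS3 read 7.67, 7.89 and 7.51 on the superovulated arrays, against 6.19, 5.03 and 6.32 on the synchronized arrays, so its groups did not overlap (limma adjusted p = 0.212). FUT1 differed with the opposite sign, at 3.07, 3.15 and 2.99 on the superovulated arrays, against 6.56, 4.89 and 7.79 on the synchronized arrays (limma adjusted p = 0.272).

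**Figure D4:**
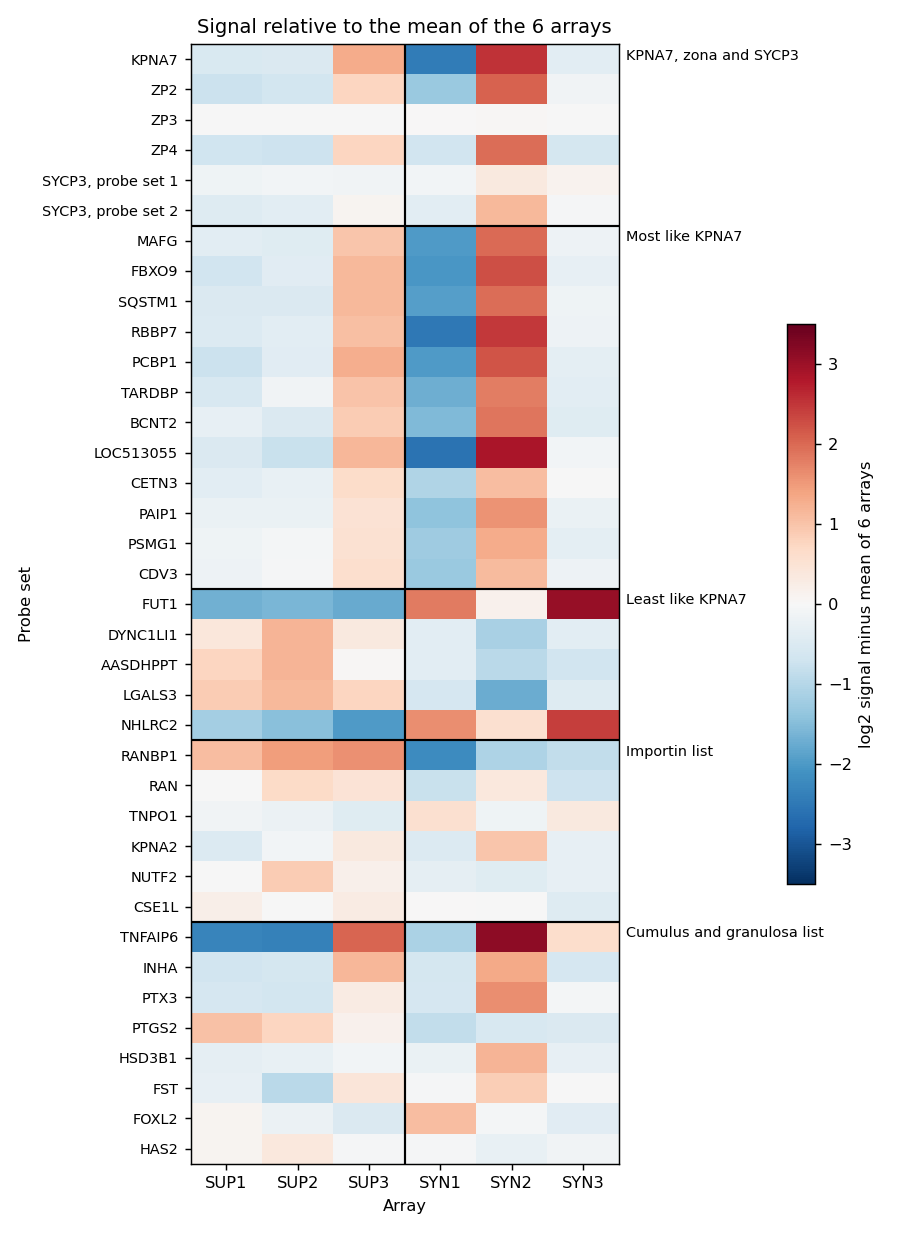
Log2 signal minus the mean of the 6 arrays (colour, log2 units) for the 6 probe sets, the genes most and least like KPNA7, and the importin and cumulus genes above log2 4 on at least 1 array (rows), on superovulated (SUP) and synchronized (SYN) arrays (columns). SYN2 and SUP3 are the highest columns and SYN1 the lowest for KPNA7 and the 12 genes most like it, whereas LGALS3 and FUT1 separate SUP from SYN.

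Other oocyte genes were mostly at background. Of 39 listed oocyte and maternal effect genes 7 had a probe set, 0 of which passed in either direction, with a median difference of -0.24. Of the 7, 6 were highest on synchronized array 2, against 12.8% of all probe sets tested. All of these but RNF34 stayed below log2 4, near background, where the order of arrays carries little information. Of the 2 above log2 4 on at least 1 array, RNF34 was highest on synchronized array 2 and KIT was not. GDF9 and BMP15, growth factors secreted by the oocyte, NLRP5 and OOEP of the subcortical maternal complex, and MOS, the kinase that holds the egg in metaphase, stayed below log2 4 on every array. MOS read 2.28, 2.24 and 2.29 on the superovulated arrays, against 2.29, 3.18 and 2.29 on the synchronized arrays. OOEP read 2.37, 2.37 and 2.36 on the superovulated arrays, against 2.38, 3.24 and 2.60 on the synchronized arrays. RNF34, a ubiquitin ligase gene, read 4.69, 4.67 and 5.31 on the superovulated arrays, against 2.45, 5.90 and 4.11 on the synchronized arrays. KIT, the receptor of stem cell factor, which somatic and germ cells express too, read 8.80, 9.27 and 8.72 on the superovulated arrays, against 5.46, 5.60 and 6.63 on the synchronized arrays. Its difference of 3.03 did not pass (limma adjusted p = 0.0545), and its 3 other probe sets, all below log2 4, differed by -0.12, -0.21 and 0.31.

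In the nuclear import machinery, KPNA2 came closest to the KPNA7 pattern. KPNA2, an importin alpha of dividing cells, read 3.99, 4.36 and 4.80 on the superovulated arrays, against 3.98, 5.43 and 4.17 on the synchronized arrays (r = 0.92 with KPNA7 over the 6 arrays). Such an r was common: 20.4% of the 398 probe sets compared with KPNA7, chosen for high and varied signal, had r above 0.9. RANBP1, a regulator of the RAN cycle that powers import, read 9.90, 10.27 and 10.41 on the superovulated arrays, against 6.62, 7.73 and 7.96 on the synchronized arrays. Its groups did not overlap, with a difference of 2.76 on 1 of its 3 probe sets (limma adjusted p = 0.0828), while the others stayed below log2 4 and differed by no more than -0.01. RAN itself differed by 0.75 and the export factor gene CSE1L by 0.31, and the transportin gene TNPO1 by -0.50. Of 23 listed genes 19 were measured, 6 exceeded log2 4 on at least 1 array, 0 passed in either direction, and the median difference was 0.07. Of the 6 above log2 4, KPNA2 was the only one with its highest value on synchronized array 2.

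Few other meiotic genes gave a signal. Of 31 listed synaptonemal complex and recombination genes 6 were measured, 0 passed, and the median difference was -0.01. TEX12, a protein of the central element of the synaptonemal complex, was the 1 member above log2 4 on any array, at 4.08, 4.31 and 3.91 on the superovulated arrays, against 3.62, 3.65 and 3.77 on the synchronized arrays. The cohesin gene STAG3 and the mismatch repair homologue MSH5 stayed below log2 3. Of 9 listed genes that act with the zona, 3 were measured, 0 exceeded log2 4 on any array and 0 passed, with a median difference of -0.03.

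Some markers of the cumulus and granulosa cells that surround the oocyte were highest on the same array as KPNA7. Of 20 listed markers 19 were measured, and 7 of the 19 were highest on synchronized array 2, against 12.8% of all probe sets tested. Of the 8 that exceeded log2 4 on at least 1 array, 5 were highest there: TNFAIP6, INHA, PTX3, HSD3B1 and FST. PTX3, HSD3B1 and FST exceeded log2 4 on that array only, so the filter itself fixed where they were highest. Among bright probe sets 27.2% were highest there, but these were chosen by their mean, so the count cannot be set against that share. The r of these 5 markers with KPNA7 ran from 0.66 to 0.87. The other 3 did not peak there: PTGS2, the prostaglandin synthase of ovulation, was highest on superovulated array 1 at 4.74, HAS2, a hyaluronan synthase, on superovulated array 2 at 4.05, and FOXL2, a granulosa transcription factor, on synchronized array 1 at 4.18. Their r with KPNA7 was 0.02, -0.45 and -0.67. INHA, the alpha subunit of inhibin, read 4.79, 4.85 and 6.64 on the superovulated arrays, against 4.85, 6.79 and 4.87 on the synchronized arrays. PTX3, a pentraxin of the cumulus matrix, read 2.99, 2.94 and 3.87 on the superovulated arrays, against 3.01, 5.21 and 3.52 on the synchronized arrays. With TNFAIP6, a hyaluronan-binding protein of that matrix, the highest superovulated value was 7.38, on array 3, against a highest synchronized value of 8.47, on array 2. A second TNFAIP6 probe set stayed between 2.39 and 2.43 on every array. The mean of the 19 markers ran from 3.07 to 3.47 on the superovulated arrays and from 3.21 to 3.74 on the synchronized arrays, with its maxima on superovulated array 3 and synchronized array 2. Among the other listed markers FSHR, CYP19A1, AMH, NR5A1 and STAR stayed below log2 4 on every array. None of the 19 passed, and the median difference was -0.08. The part of such cells in the KPNA7 and zona signals was not tested.

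Markers of the oviduct and uterus (11 of 12 measured, 1 above log2 4 on any array) and of blood (8 of 10 measured, 0 above log2 4) were mostly at background. The oviduct and uterus member above log2 4 was the complement gene C3, at 5.29, 5.95 and 5.44 on the superovulated arrays, against 2.78, 2.84 and 3.38 on the synchronized arrays. It was higher in the superovulated group by 2.56 on 1 of its 3 probe sets (limma adjusted p = 0.0373). In those lists 1 and 0 members passed, against 0.716% of all probe sets tested, and the median differences were -0.03 and -0.05.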

How the data were processed

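Each of 6 samples was hybridized to its own Affymetrix GeneChip Bovine Genome Array after amplification and biotin labelling, per the labels' protocols. The deposited log2 signals, 1 for each probe set and array, were made by the authors with GCRMA per the submitters' processing notes. Its version, and whether it was run on the arrays jointly, are not stated there. The values, 1.45 to 15.97, were used as deposited. The 112 control probe sets of 24128 were set aside. Symbols came from the platform annotation held by GEO: 13292 probe sets had 1 symbol, 86 several and 10638 none. Gene identifiers of the 6 probe sets led to 5 genes with the same symbols in RefSeq's ARS-UCD2.0 table.

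Groups were compared as superovulated minus synchronized by limma's lmFit and eBayes (limma 3.58.1, R 4.3.3, no trend, two-sided), with Benjamini-Hochberg adjustment over 24016 probe sets, a threshold of 0.05 and 95% intervals. The script was tested on simulated data. The number of arrays, 3 per group, limits the precision. For a listed gene the probe set of highest mean was used. Named genes were the 5 genes in every case, the 12 most and 5 least like KPNA7, and up to 8 per list above log2 4 on at least 1 array. Other list genes named, those below log2 4, were chosen after their values were seen. The genes and lists were chosen with earlier results of these data known. Alternatives were other scalings, a filter on dim probe sets, an intensity trend, a replicate block, and arrays left out. Sequences of these genes were not used here.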

Additional observations from a re-analysis of the deposited data

How the results depend on the processing

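Of the 6 probe sets 0 passed under any of the 13 alternatives, and over 74 differences the lowest adjusted p by limma was 0.0773, for the second SYCP3 probe set with arrays centred on bright probe sets. That setting moved the median difference of all probe sets to -0.72, from -0.02 as deposited, so values under it are relative to that shift. The direction turned in 7 of the 74 differences. KPNA7 differed by -0.40 after a second quantile normalization and by -0.52 with arrays centred on bright probe sets, and ZP2 by 0.015 without both superovulated array 3 and synchronized array 2. With 1 array left out the differences ran from -0.998 to 1.49 for KPNA7, from -1.18 to 0.50 for ZP2, from -0.93 to 0.43 for ZP4, from -0.36 to -0.14 and from -0.78 to -0.04 for the first and second SYCP3 probe sets and from -0.03 to -0.01 for ZP3. The count over all probe sets, 172 (167 higher and 5 lower), became 28 after a second quantile normalization, 529 (211 higher and 318 lower) with arrays centred on bright probe sets, 441 among probe sets with a mean above log2 4, 50 with an intensity trend, 1 without both superovulated array 3 and synchronized array 2, and 26 to 137 with 1 array left out (78, 26 and 54 without superovulated arrays 1 to 3, 60, 137 and 46 without synchronized arrays 1 to 3). The cause was not tested, beyond the fewer arrays or probe sets of some settings. With the replicate number as a block 0 passed over all probe sets. The labels do not say that a number pairs the arrays. Deviations from the group means of same-numbered arrays correlated at 0.54, -0.40 and -0.41, and those of superovulated array 3 and synchronized array 2 at 0.69. Such deviations cancel out within each group, so these values depend on each other and cannot decide whether same-numbered arrays were paired. A further limit is that 4 of the 6 probe sets could not be fitted among those with a mean above log2 4. ZP3, the first SYCP3 probe set and most arrays of ZP4 lay near background, where small differences have no reliable size.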
